A study of Mus musculus with 2 samples.

Results

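The 7 genes described here encode receptors of the tumour necrosis factor (TNF) receptor superfamily that regulatory T (Treg) cells are known for: Tnfrsf4, Tnfrsf9, Tnfrsf18, Tnfrsf1b, Cd27, Fas and Tnfrsf25. They were taken by symbol, and all 7 are among the 32285 features counted in each library. The study sorted mouse Treg cells, labelled with the mitochondrial dye MitoTracker, into a dye-high population, Mito-High, and a dye-low population, Mito-Low, and made 1 single-cell library of each with a 5′ kit of 10x Genomics. For tissue, strain, genotype, sex, age and number of mice the labels give no entry, and no treatment beyond the dye and the sort is named. Neither group was replicated, so no test was possible: every interval below is a 95% interval for counting error alone, and a difference is called when it is at least 1.5-fold.

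TNF receptors are surface proteins that signal when a ligand of the TNF family, usually on another cell, draws them together. Most of the 7 lack a death domain and bind TRAF adaptors, which switch on the transcription factor NF-kB and favour survival and division. Fas and Tnfrsf25 carry a cytoplasmic death domain. In Treg cells several of these receptors are markers of activation, and signals through Tnfrsf1b, Tnfrsf4 and Tnfrsf18 take part in forming and maintaining the lineage.

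The Mito-High library held 12217 cells with at least 500 genes and at most 20% mitochondrial unique molecular identifiers (UMIs, which count captured molecules), and the Mito-Low library 11679. Median depth was 6132 UMIs per cell in Mito-High and 4668 in Mito-Low. Both libraries shared 38 barcodes. The label was checked on marker lists: all 5 T cell and all 8 Treg markers were found in both libraries, and the Treg markers summed to 3397 counts per 1000000 UMIs (CPM) in Mito-High cells and 4709 CPM in Mito-Low cells. Foxp3 itself, which defines the lineage, had a UMI in 16.0% of Mito-High cells and 17.3% of Mito-Low cells. Summed myeloid markers stayed at 1.94 CPM in Mito-High cells and 1.45 CPM in Mito-Low cells. The 4 NK cell markers summed to 3.08 CPM in Mito-High cells and 2.08 CPM in Mito-Low cells, with Ncr1 at 0 in both. The 5 dendritic cell markers summed to 4.92 CPM in Mito-High cells and 13.7 CPM in Mito-Low cells, with Clec9a at 0 in both and Siglech at 0 in Mito-Low. The 8 B cell markers summed to 28.6 CPM in Mito-High cells and 19.9 CPM in Mito-Low cells. B cell-like cells numbered 18 in Mito-High and 0 in Mito-Low.

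Cells of each library were divided by genes outside the family. Effector cells had at least 2 of Ccl5, Il10 and Klrg1 detected, resting cells had at least 1 Igfbp4 UMI, and the other cells met neither rule. Mito-High held 165 effector cells (1.35%), 9281 other cells (76.0%) and 2765 resting cells (22.6%). Mito-Low held 1530 effector cells (13.1%), 9961 other cells (85.3%) and 185 resting cells (1.58%). A further 6 Mito-High and 3 Mito-Low cells met both rules and were set apart. Many cells lay next to the cut: exactly 1 effector gene was detected in 1266 Mito-High and 3532 Mito-Low cells, and exactly 1 Igfbp4 UMI in 1163 Mito-High and 104 Mito-Low cells. Between effector and resting cells, markers that no rule used followed the names. The 8 resting markers, among them Ccr7 and Tcf7, summed in Mito-High to 1251 CPM in effector and 4685 CPM in resting cells, and in Mito-Low to 943 CPM in effector and 4068 CPM in resting cells. The 8 effector markers, among them Gzmb, Prdm1 and Icos, summed in Mito-High to 945 CPM in effector and 163 CPM in resting cells, and in Mito-Low to 1184 CPM in effector and 372 CPM in resting cells.

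On the GRCm38 (mm10) genome, 5 of the 7 genes lie on chromosome 4, by GENCODE vM21. Tnfrsf1b is at chr4:145213463-145246870 on the minus strand. Tnfrsf9 is at chr4:150914562-150946102, Tnfrsf25 at chr4:152115934-152120119, Tnfrsf4 at chr4:156013843-156016612 and Tnfrsf18 at chr4:156026164-156028895, all on the plus strand. Tnfrsf4 and Tnfrsf18 are neighbours whose starts are 12321 bases apart. Cd27 is at chr6:125232622-125237010 on the minus strand and Fas at chr19:34290666-34327772 on the plus strand. Tnfrsf9, Tnfrsf18 and Cd27 overlap Camta1, Gm16008 and Vamp1 on the opposite strand. The sources used here do not say whether strand was used in counting, so the values of these 3 members are uncertain to the extent that reads were shared. Camta1 was at 58.4 CPM in Mito-High cells and 88.2 CPM in Mito-Low cells, Gm16008 at 7.29 CPM in Mito-High cells and 8.66 CPM in Mito-Low cells, and Vamp1 at 15.3 CPM in Mito-High cells and 28.1 CPM in Mito-Low cells.

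Because NF-kB, AP-1 and RUNX factors are known regulators of T cell genes, the 250 bases before each RefSeq start (GRCm38.p6) were searched on both strands for GGGA followed after any 4 bases by CC (NF-kB), TGANTCA (AP-1) and TGTGGT (RUNX). These letters occur in 17.6%, 6.75% and 14.0% of the 32851 promoters of the same length. Of the 9 starts of the 7 genes, those of Tnfrsf4, Tnfrsf18, Tnfrsf1b and Cd27 held no match. In the windows of Tnfrsf4 and Tnfrsf18, 166 and 158 of the 250 bases lie in GENCODE exons, so these are mostly exon sequence. The second start of Tnfrsf9 held both an NF-kB match, 42 bases before the start, and an AP-1 match, 15 bases before it. In the window of this second start, 81 of the 250 bases lie in GENCODE exons, counted for any gene and strand. Only 30 bases round each match are therefore printed. They are followed by the windows of Tnfrsf9's first start, of Tnfrsf1b and of Fas, which are shown because these genes had the widest class difference, the widest library difference and the opposite library difference. Capitals mark the matches, each sequence reads 5′ to 3′ on the gene's strand, and a match is a string of letters, not a shown binding site.
Tnfrsf9, second start, NF-kB letters, chr4:150927947-150927976, plus strand: agagcagctgGGGATTTCCCaggaggccct
Tnfrsf9, second start, AP-1 letters, chr4:150927969-150927998, plus strand: gaggccctgctcagtTGAGTCAcaggtcct
Tnfrsf9, first start, no match, chr4:150919905-150920154, plus strand: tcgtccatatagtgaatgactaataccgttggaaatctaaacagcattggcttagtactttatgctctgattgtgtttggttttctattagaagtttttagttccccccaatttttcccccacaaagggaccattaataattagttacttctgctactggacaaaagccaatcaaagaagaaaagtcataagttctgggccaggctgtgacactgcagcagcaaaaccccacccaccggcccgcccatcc
Tnfrsf1b, no match, chr4:145246871-145247120, minus strand: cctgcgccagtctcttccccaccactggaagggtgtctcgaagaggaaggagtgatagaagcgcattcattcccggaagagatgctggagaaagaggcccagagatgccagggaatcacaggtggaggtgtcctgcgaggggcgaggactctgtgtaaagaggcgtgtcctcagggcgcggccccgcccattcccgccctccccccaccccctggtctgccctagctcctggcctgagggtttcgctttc
Fas, AP-1 letters, chr19:34290409-34290658, plus strand: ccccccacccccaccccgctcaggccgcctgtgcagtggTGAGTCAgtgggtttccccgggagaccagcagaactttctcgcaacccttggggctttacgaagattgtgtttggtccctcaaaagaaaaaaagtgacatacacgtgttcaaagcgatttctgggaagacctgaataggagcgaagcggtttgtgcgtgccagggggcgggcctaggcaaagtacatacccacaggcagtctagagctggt
The Fas match lies 211 bases before the start. The first start of Tnfrsf25 also held an NF-kB match, GGGAAAAGCC, and a RUNX match.

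The first comparison asked how the family differed between dye-high and dye-low cells. Tnfrsf4, Tnfrsf9, Tnfrsf18 and Tnfrsf1b were lower in Mito-High, while Cd27, Tnfrsf25 and Fas differed by less than 1.5-fold. Of the 7 members, 4 were called lower and 0 higher, where 11.5% of all 8951 features tested were called lower and 4.21% higher. The median log2 ratio was −0.69 over the members and −0.15 over all features tested.

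Tnfrsf1b, which encodes the TNF receptor TNFR2, differed most. It stood at 76.6 CPM in Mito-High, from 6884 UMIs, and at 169 CPM in Mito-Low, from 10214 UMIs, a log2 ratio of −1.14 (interval −1.18 to −1.10). Tnfrsf9, which encodes the activation-induced receptor 4-1BB, was at 251 CPM in Mito-High cells and 476 CPM in Mito-Low cells, a log2 ratio of −0.93 (−0.95 to −0.90). The neighbouring genes Tnfrsf4 and Tnfrsf18 differed by nearly the same amount. Tnfrsf4, the receptor OX40, was at 491 CPM in Mito-High cells and 790 CPM in Mito-Low cells (log2 ratio −0.69, −0.71 to −0.67). Tnfrsf18, the receptor GITR, was at 221 CPM in Mito-High cells and 357 CPM in Mito-Low cells (log2 ratio −0.69, −0.72 to −0.66). Foxp3 is set beside them as a gene of the lineage: it was at 25.8 CPM in Mito-High cells and 41.0 CPM in Mito-Low cells, a log2 ratio of −0.67. The Treg markers did not all move alike. Il2ra was at 210 CPM in Mito-High cells and 157 CPM in Mito-Low cells, a log2 ratio of 0.42. The other Treg markers had ratios below 0, from −0.76 for Lrrc32 to −0.09 for Ikzf4.

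The remaining members differed by less than 1.5-fold. Cd27, the receptor for the ligand CD70, was at 149 CPM in Mito-High cells and 208 CPM in Mito-Low cells (log2 ratio −0.48, −0.52 to −0.45). Tnfrsf25, the death domain receptor DR3, was at 30.6 CPM in Mito-High cells and 38.0 CPM in Mito-Low cells (log2 ratio −0.32, −0.40 to −0.24). Fas, the receptor of activation-induced cell death, was the exception in direction, with 67.1 CPM in Mito-High cells and 47.3 CPM in Mito-Low cells (log2 ratio 0.51, 0.44 to 0.57). Its ratio was above that of 94.6% of the features tested.

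The count of called members depends on the scaling. TMM factors, a median ratio set to 0 and totals without mitochondrial, ribosomal and receptor segment genes moved every ratio up by 0.19, 0.15 and 0.13. Under each of them 1 member, Fas, was called higher and 2, Tnfrsf9 and Tnfrsf1b, lower, and the calls of Tnfrsf4 and Tnfrsf18 were lost. The share of all features called under these scalings is not given, so these counts are not set against a background. No scaling turned the direction of a member. Markers of resting and conventional CD4 T cells moved with the same contrast: the 8 resting markers summed to 3667 CPM in Mito-High cells and 1637 CPM in Mito-Low cells, and the 4 conventional CD4 markers, none at 0, to 278 CPM in Mito-High cells and 81.5 CPM in Mito-Low cells. Igfbp4, the gene of the resting rule, is among these 4 conventional CD4 markers, so their sum is not independent of the classes. The 8 stress genes, among them Fos and Jun, summed to 3782 CPM in Mito-High cells and 5431 CPM in Mito-Low cells. The part of these markers in the differences was not tested. Among the 1953 Mito-High and 2026 Mito-Low cells with a Foxp3 UMI the same 4 members were called lower and 0 higher, where 13.4% of features were lower and 5.24% higher, with log2 ratios of −0.79 for Tnfrsf4, −0.97 for Tnfrsf9, −0.75 for Tnfrsf18 and −1.25 for Tnfrsf1b.

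**Figure D1:**
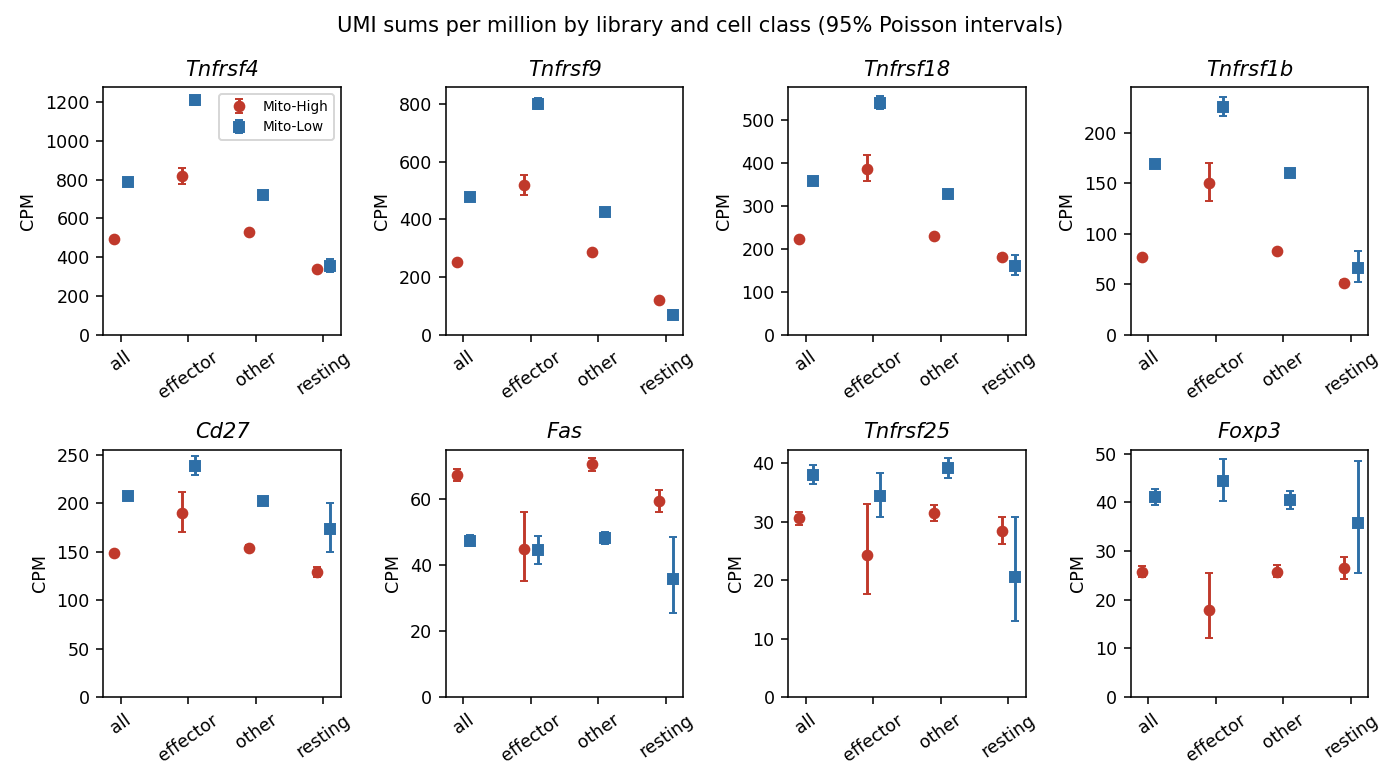
Level of each member and of Foxp3 in CPM (vertical axes, from 0) in all cells and in effector, other and resting cells. Circles are Mito-High, squares Mito-Low, and bars are exact 95% Poisson intervals; Tnfrsf4, Tnfrsf9 and Tnfrsf18 descend from effector over other to resting cells in both libraries, and Fas is the member with Mito-High above Mito-Low in all cells.

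The second comparison set effector against resting cells within each library. The 4 members that were lower in Mito-High were all higher in effector cells. In Mito-High, 4 of 7 members were called higher and 0 lower, against 26.5% of 8543 features called higher and 7.57% lower. In Mito-Low, 5 of 7 were called higher and 0 lower, against 18% of 7399 features higher and 11.1% lower. The members' median log2 ratio was 1.09 in Mito-High and 1.74 in Mito-Low, where the median of all features tested was 0.24 in Mito-High and 0.11 in Mito-Low. Mito-Low resting cells are few, so intervals there are wide.

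Tnfrsf9 separated the classes most. In Mito-High it was at 518 CPM in effector cells and 119 CPM in resting cells, a ratio of 4.36-fold (log2 ratio 2.12, 2.01 to 2.23). In Mito-Low it was at 802 CPM in effector cells and 69.5 CPM in resting cells, a ratio of 11.4-fold (log2 ratio 3.51, 3.21 to 3.87). Its ratio was above that of 97.5% of features tested in Mito-High and 99.9% in Mito-Low.

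Tnfrsf4 was at 819 CPM in effector and 339 CPM in resting cells of Mito-High (log2 ratio 1.27, 1.19 to 1.36), and at 1210 CPM in effector and 356 CPM in resting cells of Mito-Low (1.76, 1.62 to 1.91). Tnfrsf18 was at 386 CPM in effector and 181 CPM in resting cells of Mito-High (1.09, 0.97 to 1.21), and at 539 CPM in effector and 160 CPM in resting cells of Mito-Low (1.74, 1.53 to 1.97). Tnfrsf1b was at 150 CPM in effector and 51.1 CPM in resting cells of Mito-High (1.56, 1.35 to 1.75), and at 226 CPM in effector and 65.9 CPM in resting cells of Mito-Low (1.76, 1.44 to 2.13). For these 3 genes the classes lay apart beyond counting error in both libraries. Among cells with a Foxp3 UMI, of which 26 were Mito-High effector cells, the Mito-High ratios were 0.73 for Tnfrsf4, 0.47 for Tnfrsf18, which is no longer called, and 1.58 for Tnfrsf1b.

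Cd27 differed less, with 190 CPM in effector and 129 CPM in resting cells of Mito-High (0.56) and 239 CPM in effector and 174 CPM in resting cells of Mito-Low (0.45), and was called in neither library. The death domain receptors had ratios below 0 in Mito-High and above 0 in Mito-Low, where Tnfrsf25 was called higher. Fas was at 44.7 CPM in effector and 59.2 CPM in resting cells of Mito-High (−0.39, −0.76 to −0.07), but at 44.3 CPM in effector and 35.6 CPM in resting cells of Mito-Low (0.28, −0.16 to 0.82). Tnfrsf25 was at 24.4 CPM in effector and 28.5 CPM in resting cells of Mito-High (−0.19, −0.71 to 0.23), and at 34.4 CPM in effector and 20.5 CPM in resting cells of Mito-Low (0.69, 0.14 to 1.43), where the resting level rests on 23 UMIs. Cycling cells, with at least 3 of 8 division genes detected, made up 20% of Mito-High effector cells and 0.458% of Mito-Low effector cells. In Mito-High, cycling cells had lower CPM than the others for all 7 members, with log2 ratios between −0.87 for Fas and −0.44 for Tnfrsf1b. Of the members, 3 were called lower, Tnfrsf18, Cd27 and Fas, where 11.7% of features were lower and 17.1% higher. Cycling cells were deeper, with a median of 16150 UMIs against 6132 over all Mito-High cells. Per cell they held more UMIs of all 7 members, such as 5.90 against 3.49 for Tnfrsf4 and 0.66 against 0.48 for Fas. Without cycling cells, 5 members were called higher in effector than in resting cells of Mito-High, and 5 in Mito-Low. The share of all features called in that setting is not given.

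The 6 combinations of library and class can be put in order for each member. Tnfrsf4, Tnfrsf9 and Tnfrsf18 shared one order of classes: resting cells lowest, then other cells of Mito-High, other cells of Mito-Low, effector cells of Mito-High and, highest, effector cells of Mito-Low. Each step from the resting cells upward exceeded the counting intervals for these 3 genes, while the Mito-High and Mito-Low resting levels of Tnfrsf4 and of Tnfrsf18 overlapped. For Tnfrsf1b the effector cells of Mito-High, at 150 CPM (132 to 170), and the other cells of Mito-Low, at 160 CPM (157 to 164), could not be told apart. For Fas the Mito-High other cells were highest, at 70.3 CPM (68.3 to 72.4), followed by the Mito-High resting cells at 59.2 CPM (56.0 to 62.6), and neighbouring levels of the 4 remaining combinations overlapped. For Tnfrsf25 every level overlapped its neighbour.

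The third comparison held the class fixed and set Mito-High against Mito-Low again. In effector and other cells Tnfrsf4, Tnfrsf9, Tnfrsf18, Tnfrsf1b and Cd27 kept ratios below 0, closer to 0 than over all cells. Tnfrsf25 was at −0.47 in effector and −0.32 in other cells, against −0.32 over all cells. In resting cells the intervals of 3 members included 0 and the ratio of Tnfrsf9 turned. The direction in effector cells depended on the setting for Tnfrsf18 and Cd27: among cells of 4000 to 6000 UMIs their ratios were 0.02 and 0.33, and with classes called after thinning that of Tnfrsf18 was 0.01. Within resting cells, 2 members were called higher and 0 lower, against 3% of 7409 features higher and 10.4% lower. Tnfrsf9 was at 119 CPM in Mito-High resting cells and 69.5 CPM in Mito-Low resting cells (log2 ratio 0.76, 0.45 to 1.12), opposite to its ratio over all cells. Fas was at 59.2 CPM in Mito-High resting cells and 35.6 CPM in Mito-Low resting cells (0.70, 0.28 to 1.22). Tnfrsf4 had a ratio of −0.07 (−0.22 to 0.08), Tnfrsf18 of 0.17 (−0.04 to 0.40) and Tnfrsf25 of 0.41 (−0.13 to 1.14), and all 3 intervals included 0. Tnfrsf1b and Cd27 kept ratios below 0, at −0.39 (−0.71 to −0.01) and −0.44 (−0.64 to −0.21).

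Within effector cells 1 member, Tnfrsf9, was called lower and 0 higher, against 11.5% of 8626 features lower and 11.7% higher, so the count is near the background. The Mito-High over Mito-Low log2 ratios were −0.63 for Tnfrsf9, −0.58 for Tnfrsf1b, −0.56 for Tnfrsf4, −0.48 for Tnfrsf18, −0.47 for Tnfrsf25, −0.32 for Cd27 and 0.03 for Fas. Without cycling cells 0 were called. Foxp3 differed more than any member within effector cells, at −1.26 (−1.88 to −0.78), from 31 Mito-High and 416 Mito-Low UMIs. Its ratio was −0.65 in other cells and −0.46 (−0.89 to 0.07) in resting cells. Effector cells of the libraries were thus not alike in this lineage gene. The part of that difference in the members' ratios was not tested. Within other cells 1 member, Tnfrsf1b, was called lower and 0 higher, against 10.1% of 8958 features lower and 4.09% higher. Tnfrsf1b was at 82.7 CPM in Mito-High other cells and 160 CPM in Mito-Low other cells (−0.96, −1.01 to −0.91), Tnfrsf9 had a ratio of −0.57 and Fas of 0.55. The other cells were not alike in the libraries: the 8 resting markers summed to 3410 CPM in Mito-High other cells and 1712 CPM in Mito-Low other cells, and the 8 effector markers to 333 CPM in Mito-High other cells and 951 CPM in Mito-Low other cells. Their part in these ratios was not tested. With effector, other and resting cells weighted alike in both libraries, 1 member was called lower in place of 4, and the median ratio of the members was −0.38. The share of all features called with this weighting is not given.

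**Figure D2:**
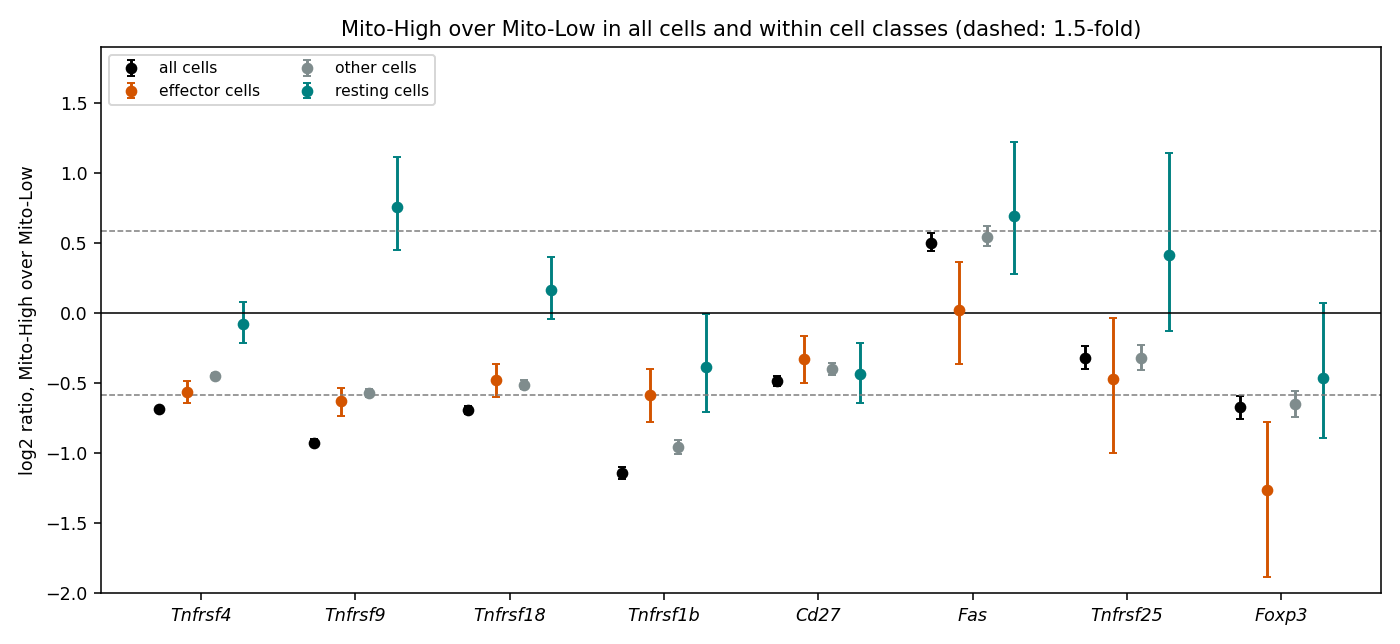
Mito-High over Mito-Low log2 ratio for each member and Foxp3 in all cells and within effector, other and resting cells, with exact 95% conditional-binomial intervals for counting error; dashed lines mark 1.5-fold. The resting-cell ratio of Tnfrsf9 is 0.76 where its ratio over all cells is −0.93, and Fas lies above 0 in all cells, other cells and resting cells.

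To compare how many cells carried a receptor transcript, cells were thinned to a common 2000 UMIs, and 139 Mito-High and 491 Mito-Low cells fell below that depth. A Tnfrsf4 UMI was found in 47.8% of Mito-High cells and 60.8% of Mito-Low cells, a Tnfrsf9 UMI in 28.5% of Mito-High cells and 44.4% of Mito-Low cells, and a Tnfrsf18 UMI in 33.6% of Mito-High cells and 45.9% of Mito-Low cells. For Tnfrsf1b the share was 13.0% among Mito-High and 26.1% among Mito-Low cells, and for Cd27 26.1% among Mito-High and 32.4% among Mito-Low cells. Fas was found in 12.1% of Mito-High cells and 8.21% of Mito-Low cells, and Tnfrsf25 in 5.97% of Mito-High cells and 7.20% of Mito-Low cells. Fas was thus the 1 member of 7 with the higher share in Mito-High.

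Without thinning, shares follow depth as well. Cd27 was then found in 58.7% of Mito-High cells and 57.5% of Mito-Low cells, Fas in 32.6% of Mito-High and 18.2% of Mito-Low, and Tnfrsf25 in 18.4% of Mito-High and 16.4% of Mito-Low. For these 3 members the unthinned share was the higher one in Mito-High. Tnfrsf4 was found in 75.1% of Mito-High cells and 77.4% of Mito-Low cells, Tnfrsf9 in 51.7% of Mito-High and 61.1% of Mito-Low, Tnfrsf18 in 67.3% of Mito-High and 68.9% of Mito-Low, and Tnfrsf1b in 34.9% of Mito-High and 48.5% of Mito-Low. B cell-like cells served as a class in which several of these receptors should be low. At most 1 of the 18 had a UMI of any one member, at a median depth of 3069 UMIs. Of the 17 that could be thinned, 1 held a Tnfrsf4 UMI and 1 a Tnfrsf1b UMI (5.88% for each, with an upper bound of 28.7%), and for the other 5 members a count of 0 allows up to 3 of 17, or 17.6%, beside an exact upper bound of 19.5%. The thinned shares of Fas, Tnfrsf25 and Tnfrsf1b lie below these limits, so free RNA was not set apart from expression for them.

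By class, a Tnfrsf9 UMI was found after thinning in 58.2% of Mito-High and 65.0% of Mito-Low effector cells, in 32.0% of Mito-High and 41.8% of Mito-Low other cells, and in 15.1% of Mito-High and 8.89% of Mito-Low resting cells. Tnfrsf1b was found in 30.3% of Mito-High and 33.0% of Mito-Low effector cells and in 8.32% of Mito-High and 8.33% of Mito-Low resting cells. These resting-cell shares of both genes lie below the limits set by the B cell-like cells. Tnfrsf4 was found in 70.3% of Mito-High and 78.8% of Mito-Low effector cells and in 38.0% of Mito-High and 42.8% of Mito-Low resting cells. UMIs were spread unevenly between cells for Tnfrsf4 and Tnfrsf9. The variance of thinned counts over their mean for Tnfrsf4 was 2.30 over Mito-High cells and 2.80 over Mito-Low cells, and for Tnfrsf9 1.99 over Mito-High cells and 2.37 over Mito-Low cells, while independent sampling of like cells gives about 1. For the other members it lay between 1.05 and 1.43.

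A thinned cell held a UMI of 1.67 members on average in Mito-High and 2.25 in Mito-Low. This number differed more between classes than between libraries: effector cells averaged 2.56 members in Mito-High and 2.89 in Mito-Low, other cells 1.77 for Mito-High against 2.17 for Mito-Low, and resting cells 1.29 in both. No member was detected in 17.5% of Mito-High cells and 9.18% of Mito-Low cells, and 4 or more members in 7.44% of Mito-High cells and 18.2% of Mito-Low cells.

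**Figure D3:**
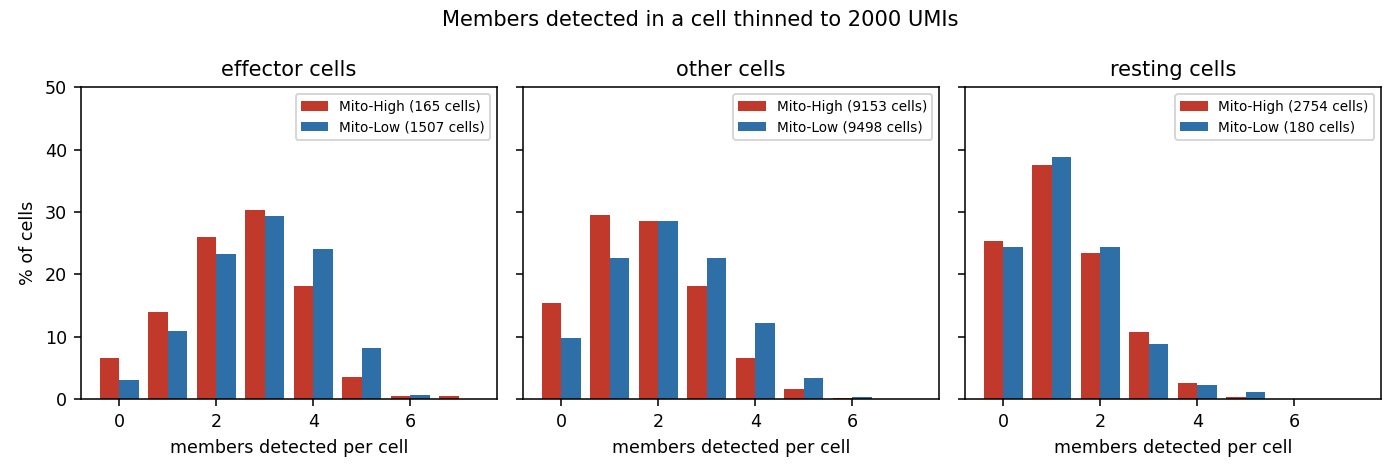
Share of cells (vertical axis, percent) by the number of members detected (horizontal axis) after thinning to 2000 UMIs, for effector, other and resting cells, with Mito-High bars left of Mito-Low bars. Resting cells of both libraries have nearly the same distribution, with a mean of 1.29 members, and effector cells peak at 3 members.

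Members were also detected together more or less often than their shares alone give. Among other cells, Tnfrsf9 and Tnfrsf1b were both found in 589 Mito-High cells where the product of their shares gives 413, a ratio of 1.43, and the ratio was 1.20 in Mito-Low. Tnfrsf4 and Tnfrsf9 were found together with ratios of 1.25 in Mito-High and 1.22 in Mito-Low. Of the Tnfrsf4-positive cells, 40.0% in Mito-High and 50.9% in Mito-Low held a Tnfrsf9 UMI, and of the Tnfrsf4-negative cells 24.0% in Mito-High and 29.1% in Mito-Low. The pair of neighbours Tnfrsf4 and Tnfrsf18 had a ratio of 1.15 in both libraries, and Tnfrsf9 with Tnfrsf18 1.18 in both. Pairs of Cd27 with the other members lay between 0.91 and 1.07, lowest with Tnfrsf25 (0.92 in Mito-High and 0.91 in Mito-Low). Tnfrsf18 with Tnfrsf1b had ratios of 1.08 in Mito-High and 1.10 in Mito-Low. Some pairs with Fas or Tnfrsf25 were higher, such as Tnfrsf9 with Fas in Mito-High (1.16) and Tnfrsf18 with Tnfrsf25 in Mito-Low (1.11). Others were below 1, such as Tnfrsf9 with Tnfrsf25 in Mito-High (0.92) and Tnfrsf1b with Tnfrsf25 in Mito-Low (0.90). These are descriptions of cells that share a library and a depth, without a test.

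**Figure D4:**
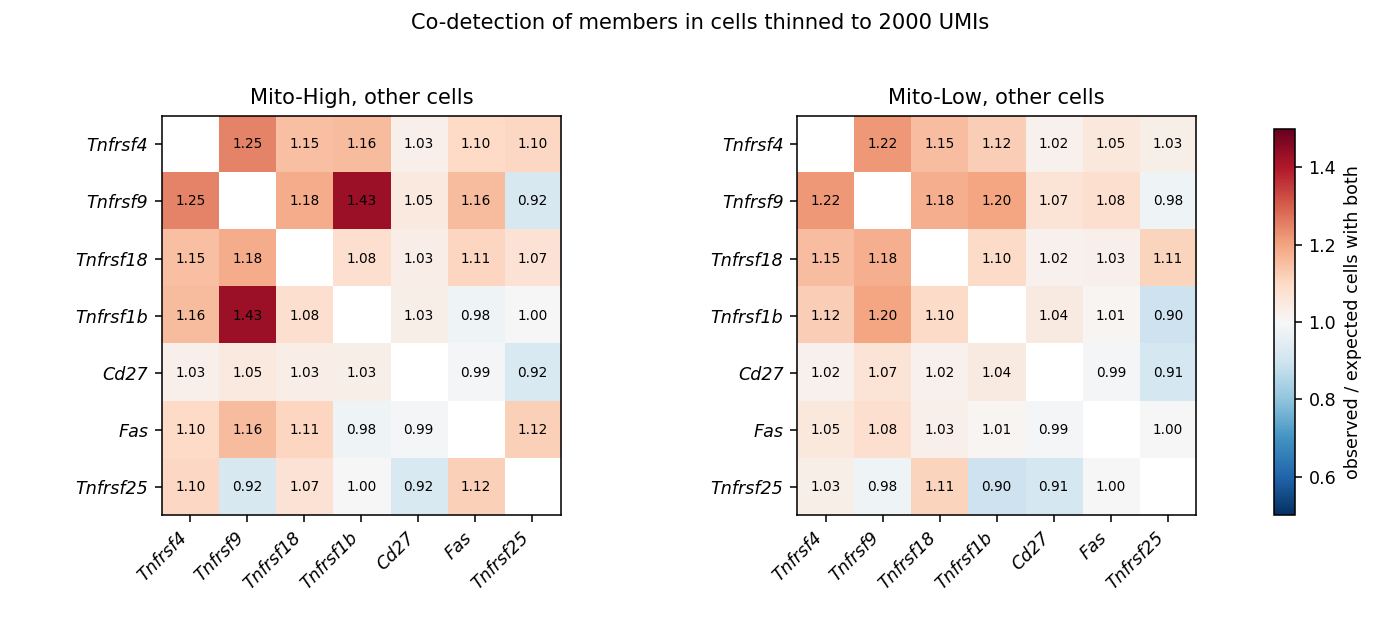
Number of other cells with both members of a pair over the number that their shares give, in Mito-High (left) and Mito-Low (right), after thinning to 2000 UMIs. Pairs among Tnfrsf4, Tnfrsf9, Tnfrsf18 and Tnfrsf1b lie above 1 in both libraries, and pairs with Cd27 lie between 0.91 and 1.07. Some pairs with Fas or Tnfrsf25 also lie above 1, so the first pairs do not stand apart as a block.

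For each member, the genes whose levels over the 6 combinations of library and class were nearest to it were found by the root mean square difference of centred log2 CPM, among all measured genes outside the class rules. The nearest were Itm2c and Icam1 for Tnfrsf4 (0.09 and 0.10). Tnfrsf18 came next for Tnfrsf4. They were Chst2 and Rora for Tnfrsf9 (0.18 for both), Mapkapk3 and Nfkbie for Tnfrsf18 (0.05 and 0.09), and Gnaq and 4932438H23Rik for Tnfrsf1b (0.05 and 0.08). Cd27 was nearest to Cd37 and Cln3 (0.04 for both), Fas to Ppm1b and Mapk8 (0.10 and 0.11), and Tnfrsf25 to Snhg5 and Kpna6 (0.05 for both). The median distance of all measured genes was 0.63 from Tnfrsf4, 1.17 from Tnfrsf9, 0.59 from Tnfrsf18, 0.72 from Tnfrsf1b, 0.33 from Cd27, 0.43 from Fas and 0.37 from Tnfrsf25.

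The rest of the pathway was described from lists of its receptors, ligands, adaptors and NF-kB genes in the Mito-High over Mito-Low contrast, where 4.21% of features were called higher and 11.5% lower. Among other receptors of the superfamily, 8 of 21 were measured and 4 were called lower, with a median of −0.54. Tnfrsf8, which encodes CD30, was at 11.2 CPM in Mito-High cells and 28.9 CPM in Mito-Low cells (log2 ratio −1.36). Tnfrsf10b, the receptor for the ligand TRAIL, was at 11.9 CPM in Mito-High cells and 23.0 CPM in Mito-Low cells (−0.95). The decoy TRAIL receptors Tnfrsf22 and Tnfrsf23 had ratios of −0.75 and −0.69, at under 7 CPM in both libraries.

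Among the ligands, 8 of 18 were measured, 1 was called higher and 3 lower, with a median of −0.20. Lta, which encodes lymphotoxin alpha, was at 24.2 CPM in Mito-High cells and 15.9 CPM in Mito-Low cells (0.61). Ltb, its membrane-bound partner, was at 562 CPM in Mito-High cells and 871 CPM in Mito-Low cells (−0.63). Cd40lg, the helper ligand of CD40, had a ratio of −0.89, and Tnfsf10, which encodes TRAIL, of −0.65.

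All 13 adaptors were measured, and 1 was called lower and 0 higher, with a median of −0.31. That gene, Traf3, which holds back the alternative NF-kB pathway, was at 101 CPM in Mito-High cells and 164 CPM in Mito-Low cells (−0.71). The caspase-8 inhibitor Cflar was at −0.45, the ubiquitin ligase Birc2 at −0.39 and Traf2 at −0.39. All 16 NF-kB genes were measured, and 5 were called lower and 0 higher, with a median of −0.35. Icam1, an adhesion molecule and NF-kB target, was at 28.6 CPM in Mito-High cells and 50.5 CPM in Mito-Low cells (−0.82). The IkB family genes Nfkbie and Nfkbiz had ratios of −0.73 and −0.72, and the precursor Nfkb2 of −0.67. These list counts depend on the scaling as well, in a comparison chosen after seeing the data. Under each of the 3 other scalings the calls of Tnfrsf23, Ltb, Tnfsf10, Traf3, Nfkb2, Nfkbiz and Relb were lost, while those of Tnfrsf8, Tnfrsf10b, Cd40lg, Icam1 and Lta remained. That left 2 or 3 other receptors, 1 ligand, 0 adaptors and 1 or 2 NF-kB genes called lower. These counts too stand without the share of all features called under the same scaling.

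The lists differed in the effector over resting contrast, where 26.5% of features in Mito-High and 18% in Mito-Low were called higher, and 7.57% in Mito-High and 11.1% in Mito-Low lower. Of the NF-kB genes, 6 of 16 were called higher and 1 lower in Mito-High (median 0.25), and 10 of 16 higher and 2 lower in Mito-Low (median 0.87). Of the adaptors, 5 of 13 were called higher and 0 lower in Mito-High (median 0.41), and 3 of 12 higher and 0 lower in Mito-Low (median 0.51). The other receptors had 2 of 4 called higher and 0 lower in Mito-High (median 0.47), and 0 of 6 higher and 4 lower in Mito-Low (median −0.82). These counts cover different genes. Tnfrsf8, at 2.59 in Mito-High, had fewer than 10 resting UMIs in Mito-Low and was not measured there, where its ratio was 2.87. Tnfrsf10b, Tnfrsf13b and Tnfrsf26 were measured in both. Their ratios were 0.32, 0.62 and −0.46 in Mito-High and 0.28, 0.40 and −1.34 in Mito-Low. Of the ligands, 1 of 8 was called higher and 2 lower in Mito-High (median −0.33), and 2 of 8 higher and 4 lower in Mito-Low (median −0.47).

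**Figure D5:**
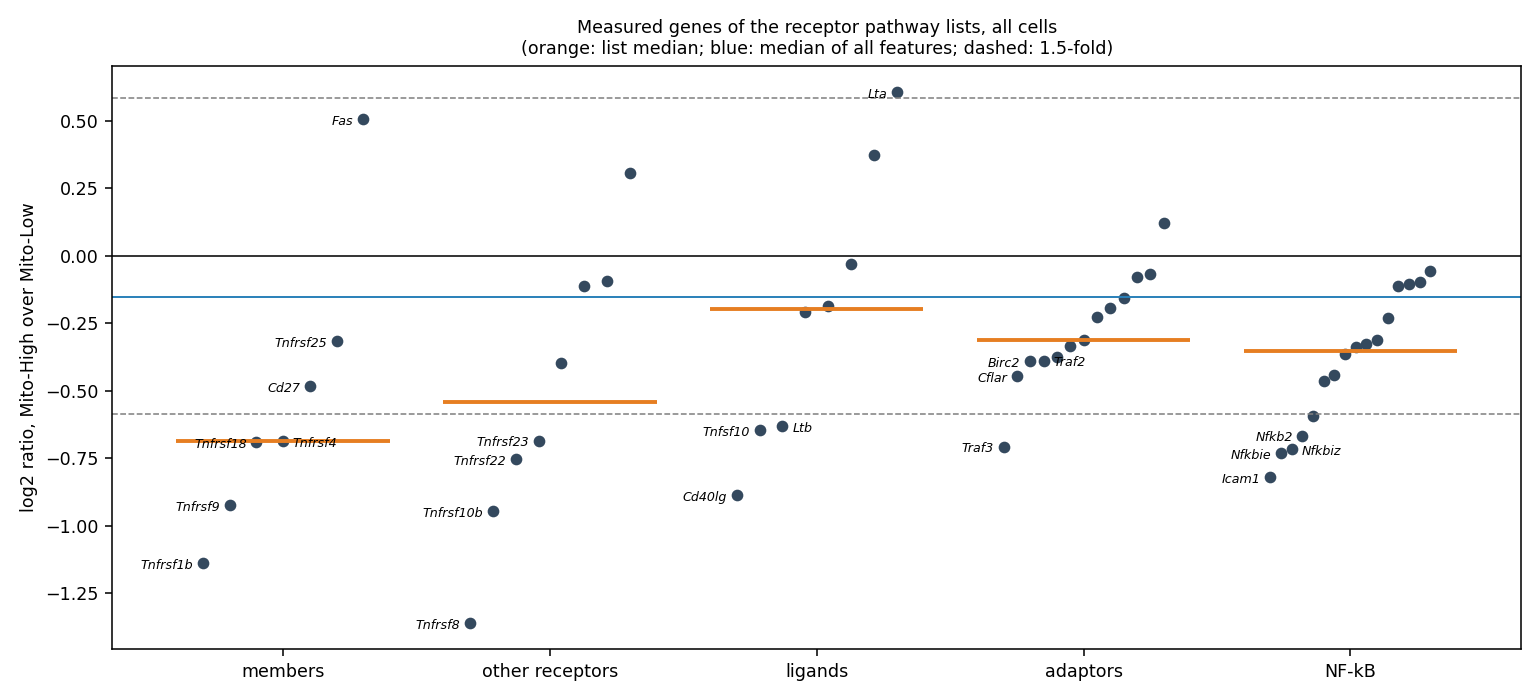
Mito-High over Mito-Low log2 ratio in all cells for each measured member and each measured gene of 4 pathway lists. Orange lines are list medians, from −0.69 for the members to −0.20 for the ligands, the blue line is the median of all features tested, −0.15, and dashed lines mark 1.5-fold; Fas and Lta stand highest in their lists.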

How the data were processed

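The authors deposited unnormalised UMI counts, 1 matrix of genes by barcodes per library, per the file headers. The submitters' processing notes name Cell Ranger 7.1.0, Seurat 4.3.0.1 and mm10. Annotation release, introns, strand and barcode filtering are not described in these sources. Doublets were not called; leaving out the deepest 5% of cells was an alternative. From the counts, UMIs were summed over cells and scaled to CPM, and log2 ratios were formed after adding 1 to both sums. The intervals are exact, for sums Poisson, for ratios conditional-binomial and for shares Clopper-Pearson, at 95%, and cover counting error only. Features were tested for a call with a mean of at least 5 CPM and at least 10 UMIs in each group. Promoter sequences are from RefSeq. Python 3.11.15, scipy 1.17.1 and edgeR 4.0.16 (for TMM) were used, and the scripts were tested on simulated data.

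The members, classes and lists were chosen with earlier results of these data known. Named were all 7 members, Foxp3, up to 4 measured genes per list with the largest absolute ratio, and for each member the 2 nearest genes. Libraries were compared in all cells and within classes, and effector with resting cells within libraries.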

Additional observations from a re-analysis of the deposited data

Results flagged for a closer look

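Fas and Tnfrsf25 stood out because their effector over resting ratios pointed in opposite directions in the libraries. For Fas the log2 ratio was −0.39 in Mito-High against 0.28 in Mito-Low. For Tnfrsf25 it was −0.19 in Mito-High against 0.69 in Mito-Low. The difference between the libraries was not tested, since each ratio comes from 1 library. The Mito-High direction depended on the setting: over 16 alternatives the ratio ranged from −1.37 to 0.996 for Fas, with 2 above 0, and from −0.43 to 0.94 for Tnfrsf25, with 5 above 0. Of the 4 intervals, those of Fas in Mito-Low and Tnfrsf25 in Mito-High include 0.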

How the results depend on the processing

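No alternative turned the direction of a called ratio, but uncalled ones turned: those of Tnfrsf18, Cd27, Fas and Tnfrsf25 between libraries within effector cells, and those of Fas and Tnfrsf25 between effector and resting cells of Mito-High. For effector over resting cells, 4 to 6 members were called in Mito-High and 4 to 6 in Mito-Low. Over all cells, weighting the classes alike gave 1 called member in place of 4, and a 2-fold threshold also 1. A 2-fold threshold left 0 within resting, 0 within effector and 0 within other cells. Within effector cells, where 1 was called, the count was 3 among cells of 4000 to 6000 UMIs, 0 without cycling cells, 4 among cells with a Foxp3 UMI, 4 with effector cells set by 1 gene, 3 by all 3 genes, and 0 with classes called after thinning. With Il10 and Klrg1, Ccl5 and Klrg1, or Ccl5 and Il10 required, settings chosen after seeing the data, it was 3, 2 and 3. Within other cells, where 1 was called, it was 3 with every cell weighted alike, 4 among cells of 4000 to 6000 UMIs, 2 without the deepest 5% of cells, 2 without cycling cells, 2 among cells with a Foxp3 UMI, 3 with effector cells set by all 3 genes, 2 with resting cells set by 2 Igfbp4 UMIs, and 3 with classes called after thinning. Within resting cells that last setting gave 1 in place of 2. Shares not thinned gave 3 members higher in Mito-High in place of 1. For these counts of members under alternative settings the share of all features called is not given, so they are not set against a background. The causes were not tested. The share of features called lower was 24.4% with no filter beyond 1 UMI and 20.7% with none beyond 10 UMIs in all, in place of 11.5%, and called higher 11.3% and 9.85% in place of 4.21%. Over all cells the log2 ratio of Fas ranged from 0.44 to 0.69, and that of Tnfrsf1b from −1.37 to −0.67, over 13 settings. Effector and resting counts rest on 165 Mito-High effector and 185 Mito-Low resting cells. No paired analysis was possible because there is 1 library per group.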

Other observations

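Other cells with and without a Tnfrsf9 UMI were set side by side after thinning to 2000 UMIs, a split chosen after seeing the data and given as a description. In Mito-High 2931 cells had a Tnfrsf9 UMI and 6222 had none, and in Mito-Low 3971 had one and 5527 had none. Cells with the UMI had higher levels of Tnfrsf4, at a log2 ratio of 0.83 in Mito-High and 1.04 in Mito-Low. Of the members without Tnfrsf9, 2 of 6 were called higher in each library, where 4.67% of features in Mito-High and 3.75% in Mito-Low were. They were Tnfrsf4 and Tnfrsf1b in Mito-High, and Tnfrsf4 and Tnfrsf18 in Mito-Low. Among the genes with the largest ratios in both libraries was Ccr8, a chemokine receptor of activated Treg cells, at 35.3 CPM with and 12.7 CPM without the UMI in Mito-High, and at 60.1 CPM with and 22.9 CPM without it in Mito-Low. Pdcd1, the inhibitory receptor PD-1, was at 39.9 CPM with and 11.7 CPM without it in Mito-High, and at 81.6 CPM with and 33.7 CPM without it in Mito-Low. Penk, the enkephalin precursor, had ratios of 1.59 in Mito-High and 2.18 in Mito-Low. S1pr1, the receptor that guides T cells out of lymphoid tissue, was lower with the UMI, at −0.80 in Mito-High and −0.96 in Mito-Low.

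Of the pathway lists, 1 of 16 NF-kB genes was called higher with the UMI in each library. That count is near the share of all features, 4.67% in Mito-High and 3.75% in Mito-Low. The gene was the subunit Rel, at 0.70 in Mito-High and 0.91 in Mito-Low. In Mito-Low the receptors Tnfrsf22 and Tnfrsf26 were called lower, at −0.80 and −0.67, where 1.24% of features were called lower. Tnfsf8, the ligand of CD30, was called higher in both, at 0.59 in Mito-High cells and 0.77 in Mito-Low cells, and so was Tnfrsf8, which encodes CD30 itself, at 1.10 in Mito-High and 1.20 in Mito-Low. Features called higher numbered 383 in Mito-High and 255 in Mito-Low among the 8564 tested in both, and 150 were shared, which is 39.2% of the Mito-High and 58.8% of the Mito-Low genes.

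The level of Fas was lower in each deeper bin of Mito-High cells, with 90.2 CPM under 3000 UMIs and 58.5 CPM at 9000 UMIs or more. In Mito-Low it was at 40.6 CPM under 3000 UMIs and 49.2 CPM at 9000 UMIs or more. Its level was higher in Mito-High than in Mito-Low in each of the 5 depth bins.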
